A study of Mus musculus with 8 samples.

Results

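SR proteins, heterogeneous nuclear ribonucleoproteins (hnRNPs) and the core factors that pick out the 3′ end of an intron decide together which splice sites of a transcript are used. The genes described here encode them: the numbered SR genes (Srsf), the hnRNP genes (Hnrnp), the SF3a and SF3b subunits of the U2 small nuclear ribonucleoprotein (Sf3a, Sf3b), and the U2 auxiliary factor (U2af). They were chosen by symbol from a table of 55304 genes, and each had to have at least 10 counts in at least 2 libraries. Of 43 symbols that matched, 42 met this minimum, and all 42 were among the 17440 genes tested. There were 11 SR genes, 20 hnRNP genes, 3 SF3a genes, 6 SF3b genes and 2 U2af genes. U2af1l4, with 0 to 8 counts in a library, was the gene left out.

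The RNA came from mouse kidney cells taken fresh on the strength of their binding to Dolichos biflorus agglutinin (DBA), a plant lectin that in kidney labels mainly the collecting duct. Wild-type (WT) mice were set beside ADPKD mice, which model autosomal dominant polycystic kidney disease, and each genotype received either vehicle (DMSO) or 666-15, a small molecule that inhibits the transcription factor CREB. The inhibitor was dosed at 5 mg/kg daily in cycles of 5 dosing days and 2 rest days, from postnatal day 11 and for 3 weeks, and the other mice received vehicle in its place. The 4 groups had 2 libraries each. The labels name neither the altered gene nor any driver allele of the ADPKD mice, and leave unsaid whether replicate libraries stem from different animals. The p-values below rest on the spread between the 2 libraries of a group, pooled over the 4 groups and drawn in part from other genes. Those 2 libraries may therefore be technical replicates, except in the inhibitor-treated WT group, whose libraries differed in sex.

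SR proteins carry RNA recognition motifs and a domain rich in arginine and serine, and they bind exonic enhancers and promote the use of nearby splice sites. hnRNPs coat nascent RNA and often act in the opposite way, by masking splice sites, and several of them also govern the stability and transport of mature RNA. U2AF reads the polypyrimidine tract and the AG at the end of an intron, after which SF3a and SF3b anchor the U2 particle at the branch point. Many genes of these families hold their own level in check by splicing in a poison exon, or keeping an intron, that sends the transcript to nonsense-mediated decay. In the GENCODE annotation 22 of the 42 members (52.4%) had a transcript marked for nonsense-mediated decay, against 27.1% of 14371 protein-coding genes tested. A retained-intron transcript was annotated for 31 members (73.8%), against 56.2% of those genes. The deposited counts are per gene, so productive and decay transcripts of a member were not told apart. Exons of 18 members overlap those of another annotated gene, in 15 cases one on the other strand, and for 6 members the overlap covers 10% or more of the exon bases.

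Total counts ranged from 15108793 to 19702638 per library. Inhibitor-treated WT replicate 2 stood apart, with 17688 counts of Xist and 0 of the Y-linked Ddx3y, against at most 8 and at least 1776 in the other 7 libraries. The cell mixture differed between groups. Markers of principal cells, the collecting duct cells that carry aquaporin 2, made up 0.104% to 0.141% of counts with vehicle in WT, 0.585% to 0.589% with inhibitor in WT, and 0.147% to 0.211% in the 4 ADPKD libraries. Of these 7 markers none was at 0 in a whole group, although Avpr2, the vasopressin receptor gene, had 0 to 3 counts in a library. Between the vehicle-treated genotypes 4 of the 6 principal cell markers tested rose and 1 fell. The latter was Hsd11b2, from 4975 and 5668 counts in WT to 2069 and 2342 in ADPKD libraries. Markers of the proximal tubule took 0.985% to 1.17% of counts in vehicle-treated WT cells, more than those of principal cells. They took 0.387% to 0.452% in inhibitor-treated WT cells, 0.00212% to 0.00256% in vehicle-treated ADPKD cells and 0.0275% to 0.0284% in inhibitor-treated ADPKD cells. Markers of the thick ascending limb took 0.286% to 0.657% of counts in the WT libraries and 0.0282% to 0.0354% in the ADPKD libraries, and those of intercalated cells 0.0549% to 0.143% and 0.00916% to 0.043%. Between the vehicle-treated genotypes 6 of 7 macrophage markers rose and 1 fell, and 4 of 5 stromal markers rose. Summed, the macrophage markers went from 0.00765% to 0.0104% up to 0.0232% to 0.0284%. The stromal markers went from 0.0116% to 0.0146% up to 0.0255% to 0.0469%. Csf1r, the macrophage marker that fell, had 1517 and 892 counts in WT and 626 and 466 in ADPKD libraries, and weighed most in the WT sum. With the inhibitor in ADPKD cells all 6 endothelial markers fell, from 0.095% to 0.119% down to 0.026% to 0.0328%, and 4 of the 5 stromal markers fell as well. No marker of these lists was at 0 in a whole group. The part of these cells in the results below was not tested, and in bulk RNA fewer cells of a type and less RNA per cell cannot be told apart.

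Because the inhibitor is aimed at CREB, the promoters of the members were read for the CREB response element, TGACGTCA, and its half-site, TGACG, on both strands, so that CGTCA counts as the half-site too. RefSeq promoter windows of 300 bases on GRCm38.p6 around the start were found for 37 of the 42 members, in 51 windows. None of the 51 windows held the full element, which was present in 426 of 15375 windows of tested genes (2.77%). The half-site was present for 19 of 37 members (51.4%), against 33% of 12056 tested genes. The members' windows were richer in G and C, with a median of 65% against 60%. A match is a description and not a site, and a window without a match says nothing of CREB. The windows printed here belong to the 3 members whose response to the inhibitor differed between genotypes in every alternative analysis (Hnrnpa0, Hnrnpc and Hnrnpa1), and to Srsf11, whose rise with the inhibitor held in all of them in both genotypes. Every window found for these genes is shown, and the half-sites are in capitals.
Hnrnpa0, chr13:58128507-58128806, minus strand: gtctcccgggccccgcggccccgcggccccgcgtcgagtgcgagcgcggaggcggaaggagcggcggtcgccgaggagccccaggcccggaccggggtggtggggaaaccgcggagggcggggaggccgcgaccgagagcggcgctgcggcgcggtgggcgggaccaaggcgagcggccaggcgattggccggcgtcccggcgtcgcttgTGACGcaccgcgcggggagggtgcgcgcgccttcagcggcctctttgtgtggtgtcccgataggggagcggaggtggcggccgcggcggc
Hnrnpc, chr14:52103972-52104271, minus strand: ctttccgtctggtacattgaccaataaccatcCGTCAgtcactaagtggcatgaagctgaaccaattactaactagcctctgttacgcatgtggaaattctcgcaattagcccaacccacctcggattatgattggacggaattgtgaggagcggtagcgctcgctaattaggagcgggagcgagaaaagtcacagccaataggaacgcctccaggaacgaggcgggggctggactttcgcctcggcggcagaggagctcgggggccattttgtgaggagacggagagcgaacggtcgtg
Hnrnpa1, chr15:103240147-103240446, plus strand: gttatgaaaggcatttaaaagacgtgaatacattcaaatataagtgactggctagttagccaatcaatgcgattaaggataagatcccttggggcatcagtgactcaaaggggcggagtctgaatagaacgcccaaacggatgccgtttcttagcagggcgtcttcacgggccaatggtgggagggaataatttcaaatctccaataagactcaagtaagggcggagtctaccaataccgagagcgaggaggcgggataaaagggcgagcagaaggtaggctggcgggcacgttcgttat
Srsf11, chr3:158036557-158036856, minus strand: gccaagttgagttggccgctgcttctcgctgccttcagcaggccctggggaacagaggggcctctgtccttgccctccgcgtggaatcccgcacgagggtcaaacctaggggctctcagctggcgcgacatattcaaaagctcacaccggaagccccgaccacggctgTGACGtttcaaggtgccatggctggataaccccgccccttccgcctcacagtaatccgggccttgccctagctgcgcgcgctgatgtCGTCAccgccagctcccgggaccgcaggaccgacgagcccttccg
Srsf11, second window, chr3:158031699-158031998, minus strand: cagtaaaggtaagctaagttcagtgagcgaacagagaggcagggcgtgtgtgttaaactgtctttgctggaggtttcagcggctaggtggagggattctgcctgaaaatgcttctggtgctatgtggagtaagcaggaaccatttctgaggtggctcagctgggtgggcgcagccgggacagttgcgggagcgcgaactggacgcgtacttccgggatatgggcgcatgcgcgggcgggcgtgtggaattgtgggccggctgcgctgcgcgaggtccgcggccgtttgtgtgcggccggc
The windows of Hnrnpa0 and Hnrnpc held 1 half-site each and that of Hnrnpa1 held 0. Of the windows of Srsf11, the one at the start of the gene held 2 and the other held 0. Members with a half-site were found on either side of the inhibitor comparison in ADPKD cells: 6 of the 9 that rose there had one, as did 3 of the 7 with a window that fell and 10 of the 21 that were not called.

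Levels of different genes were set side by side only per length, as normalised counts scaled to library size (CPM) per kilobase of exon. In vehicle-treated WT cells the highest level was that of Srsf5, at 124 CPM per kilobase, followed by Hnrnpa2b1 at 108 and Hnrnph1 at 105. Srsf12, at 0.266 CPM per kilobase, and Hnrnpr, at 2.84, were the lowest. The length used was that of all annotated exons of a gene together. Hnrnpr had the longest of the members, 22199 bases against a median of 4814. The make-up of the SR family, again per length, differed between genotypes. With vehicle, Srsf5 supplied 30.4% and 28.7% of the family's level in the WT libraries and 14.9% and 15.8% in the ADPKD libraries. Srsf2 supplied 16.0% and 16.1% in the former and 24.5% and 23.6% in the latter, so that Srsf2 and not Srsf5 was the leading SR gene in vehicle-treated ADPKD cells. With the inhibitor in ADPKD cells Srsf5 stood at 17.8% and 18.5%, Srsf2 at 20.9% and 19.9%, and Srsf11 at 19.1% and 18.6%. Among the hnRNPs, Hnrnpab with vehicle supplied 9.41% and 9.15% of the family's level in WT cells and 14.8% in each ADPKD library. Hnrnpa2b1 went the other way, from 11.4% and 11.3% in WT cells down to 6.42% and 6.08% in ADPKD cells. Summed over all 42 members, splicing factor RNA took 0.833% to 0.892% of counts in the 4 WT libraries and 0.977% to 1.0% in the 4 ADPKD libraries.

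**Figure D1:**
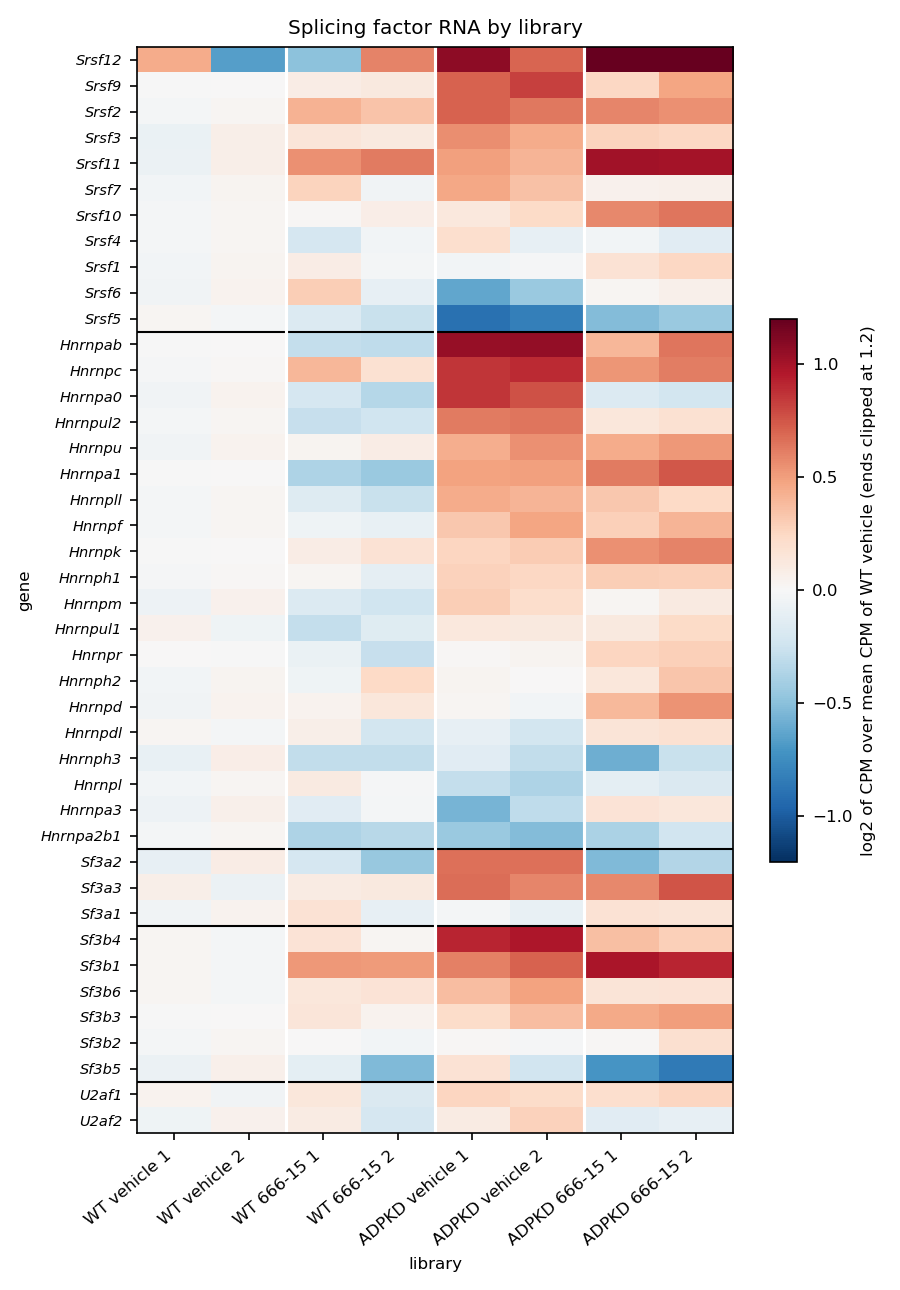
RNA level of the 42 splicing factor genes (rows, by family) in the 8 libraries (columns), coloured by the log2 ratio of each library's CPM to the mean CPM of the 2 vehicle-treated WT libraries, with the colour clipped at 1.2 in either direction. In the vehicle-treated ADPKD columns 22 genes passed the test as higher (red) and 5 as lower (blue), with Hnrnpab at 1.05 and Srsf5 at -0.86 at the ends of the genes that passed.

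The first comparison asks how splicing factor RNA differs in ADPKD cells when neither genotype received the inhibitor. Most members were higher in ADPKD cells, led by the hnRNP genes Hnrnpab and Hnrnpc and the SF3b gene Sf3b4, while the SR genes Srsf5 and Srsf6 and the hnRNP gene Hnrnpa2b1 were lower. Of the 42 members 22 rose (52.4%, against 28.8% of all genes tested) and 5 fell (11.9%, against 27.6%), where a call means an edgeR quasi-likelihood p under 0.05 after Benjamini-Hochberg adjustment over all 17440 genes. In either direction 27 passed (64.3%), against 56.4% of all genes. The median log2 fold change was 0.27 over the members and 0.05 over all genes. Of the 27 calls, 18 held in all 19 alternative analyses, 15 of them higher and 3 lower. Where groups are said not to overlap, this adds little with 2 libraries each, and it was not counted over all genes. The groups did not overlap for Hnrnpr either, at 0.02 ± 0.11 (adjusted p = 0.861).

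Of the 11 SR genes 5 rose (45.5%, against 28.8% of all genes tested) and 2 fell (18.2%, against 27.6%) between the vehicle-treated genotypes. Srsf5, known from rat liver as a gene induced by growth signals, measured 504 and 488 CPM in the WT libraries and 266 and 281 CPM in the ADPKD libraries. Both ADPKD libraries lay far below both WT libraries, and Srsf5 fell by 0.86 ± 0.09 (SE) on the log2 scale (adjusted p = 3.88e-06). Srsf6, which like Srsf5 promotes exon inclusion, measured 231 and 245 CPM in WT and 154.5 and 175 CPM in ADPKD cells, without overlap. It fell by 0.53 ± 0.12 (adjusted p = 0.00261). Srsf2, a resident of nuclear speckles and an essential exon definition factor, measured 197 and 202 CPM in WT and 325 and 309.5 CPM in ADPKD cells. The groups did not overlap, and Srsf2 rose by 0.67 ± 0.09 (adjusted p = 2.85e-05). Its exons share 15.6% of their bases with Mettl23 and 9.74% with Mfsd11, both on the other strand. Mettl23 fell by 0.74 ± 0.20 and Mfsd11 rose by 1.30 ± 0.14, and whether reads were counted by strand is not given in the sources used here. Srsf9, a small SR protein, measured 37.9 CPM in each WT library and 61.8 and 67.1 CPM in the ADPKD libraries, both well above WT. It rose by 0.77 ± 0.12 (adjusted p = 0.000112). Srsf11, which interacts with U2AF and other SR proteins, measured 369 and 408 CPM in WT and 546.5 and 515 CPM in ADPKD cells, without overlap, and rose by 0.45 ± 0.09 (adjusted p = 0.00102). Srsf3, the smallest SR protein and an adaptor for mRNA export, measured 189.7 and 210.1 CPM in WT and 294 and 272 CPM in ADPKD cells. The groups lay apart, and Srsf3 rose by 0.50 ± 0.09 (adjusted p = 0.00051). Srsf7, also an export adaptor, measured 124 and 129 CPM in WT and 174 and 161 CPM in ADPKD cells. Its rise of 0.41 ± 0.11 (adjusted p = 0.00643) ended without vehicle-treated WT replicate 1 (0.36, adjusted p = 0.0693) or vehicle-treated ADPKD replicate 1 (0.34, adjusted p = 0.054). The remaining 4 did not pass, and Srsf1, the founding SR protein, was among them at -0.02 ± 0.09.

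Of the 20 hnRNP genes 11 rose and 3 fell. Hnrnpab, a member of the A/B group that binds both RNA and single-stranded DNA, measured 245.5 and 245.7 CPM in WT and 508 and 512 CPM in ADPKD cells. It had the largest log2 fold change of any member in this comparison, 1.05 ± 0.10 (adjusted p = 1.21e-06), or 2.08-fold. The exons of Hnrnpab share 29.1% of their bases with Phykpl on the other strand, which measured -0.34 and did not pass. Hnrnpc, which binds uridine tracts and shields cryptic exons, measured 215 and 219.5 CPM in WT and 393 and 404 CPM in ADPKD cells. Hnrnpc thus had no overlap between genotypes and rose by 0.87 ± 0.10 (adjusted p = 6.4e-06). Hnrnpa0, which binds AU-rich elements in mRNA, measured 196 and 208 CPM in WT and 367 and 344 CPM in ADPKD cells. Again the groups lay far apart, and Hnrnpa0 rose by 0.81 ± 0.09 (adjusted p = 8.55e-06). Hnrnpul2, a relative of the nuclear scaffold protein encoded by Hnrnpu, measured 158 and 164 CPM in WT and 248 and 251 CPM in ADPKD cells, and rose by 0.63 ± 0.09 (adjusted p = 4.43e-05). Hnrnpa1, the best known repressor of splice sites, measured 310.3 and 314 CPM in WT and 435 and 439 CPM in ADPKD cells, and rose by 0.49 ± 0.09 (adjusted p = 0.000464). Hnrnpu, Hnrnpll and Hnrnpf also rose, by 0.50, 0.43 and 0.40. The close relative of Hnrnpa1, Hnrnpa2b1, which also sorts RNA for transport, measured 702 and 721 CPM in WT and 523 and 497 CPM in ADPKD cells. It fell without overlap, by 0.48 ± 0.09 (adjusted p = 0.000569).

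For 5 hnRNP genes with smaller differences the call ended when 1 library was left out, while the fold changes of most moved little. Hnrnpa3, a further member of the A/B group, measured 115 and 126 CPM in WT and 81.7 and 96.95 CPM in ADPKD cells. Its fall of 0.43 (adjusted p = 0.00444) ended without vehicle-treated ADPKD replicate 1 (-0.32, adjusted p = 0.0559). Hnrnpl, which binds CA repeats, fell by 0.33 (adjusted p = 0.0084), and the call ended without WT vehicle replicate 2 (-0.32, adjusted p = 0.0565) or ADPKD vehicle replicate 2 (-0.30, adjusted p = 0.0504). Hnrnpk, which binds C-rich RNA, measured 541 and 547 CPM in WT and 649 and 673 CPM in ADPKD cells. Its call (0.28, adjusted p = 0.014) ended without WT vehicle replicate 1 (0.25, adjusted p = 0.116) or 2 (0.27, adjusted p = 0.0951), or ADPKD vehicle replicate 2 (0.23, adjusted p = 0.0994). For Hnrnph1, which binds runs of G, the call (0.26, adjusted p = 0.0213) ended without any 1 of the 4 vehicle libraries, with fold changes of 0.23 to 0.26 at adjusted p from 0.0753 to 0.161. For Hnrnpm the call (0.25, adjusted p = 0.0343) ended without any 1 of the 4 vehicle libraries or the 2 inhibitor-treated ADPKD libraries, with fold changes of 0.18 to 0.29 at 0.0661 to 0.303.

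Of the 9 SF3 genes 6 rose (66.7% in SF3a and in SF3b, against 28.8% of all genes tested) and none fell (against 27.6%). Neither U2af gene passed. Sf3b4, the subunit that touches pre-mRNA beside the branch point, measured 66.3 and 64.4 CPM in WT and 123 and 128 CPM in ADPKD cells. Both ADPKD libraries lay far above both WT libraries, and Sf3b4 rose by 0.94 ± 0.10 (adjusted p = 3.97e-06). Sf3b1, the large scaffold that clasps the branch point and the target of several splicing inhibitors, measured 499.9 and 486 CPM in WT and 751 and 803 CPM in ADPKD cells. It rose without overlap, by 0.66 ± 0.09 (adjusted p = 3.05e-05). Sf3a3, a subunit that joins SF3a to the U2 particle, measured 23.9 and 21.7 CPM in WT and 36.3 and 34.2 CPM in ADPKD cells, and rose by 0.63 ± 0.13 (adjusted p = 0.00124). Sf3a2 measured 33.7 and 38.3 CPM in WT and 56.8 and 57.0 CPM in ADPKD cells, and rose by 0.66 ± 0.13 (adjusted p = 0.000936), a call that ended when a trend with transcript GC content was removed (0.30, adjusted p = 0.0523). Plekhj1, which shares 16.1% of the exon bases of Sf3a2 on the other strand, measured 0.62 ± 0.17 higher. Sf3b6, which contacts the branch point adenosine, rose by 0.42 (adjusted p = 0.00619), and this ended without WT vehicle replicate 2 (0.38, adjusted p = 0.0686) or ADPKD vehicle replicate 2 (0.34, adjusted p = 0.0554). Sf3b3 rose by 0.29 (adjusted p = 0.0163), which ended without WT vehicle replicate 1 (0.27, adjusted p = 0.123) or 2 (0.28, adjusted p = 0.111), or ADPKD vehicle replicate 2 (0.20, adjusted p = 0.177). U2af1 and U2af2, the AG-reading and tract-reading subunits of U2AF, measured 0.24 and 0.19 with adjusted p of 0.0901 and 0.159.

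**Figure D2:**
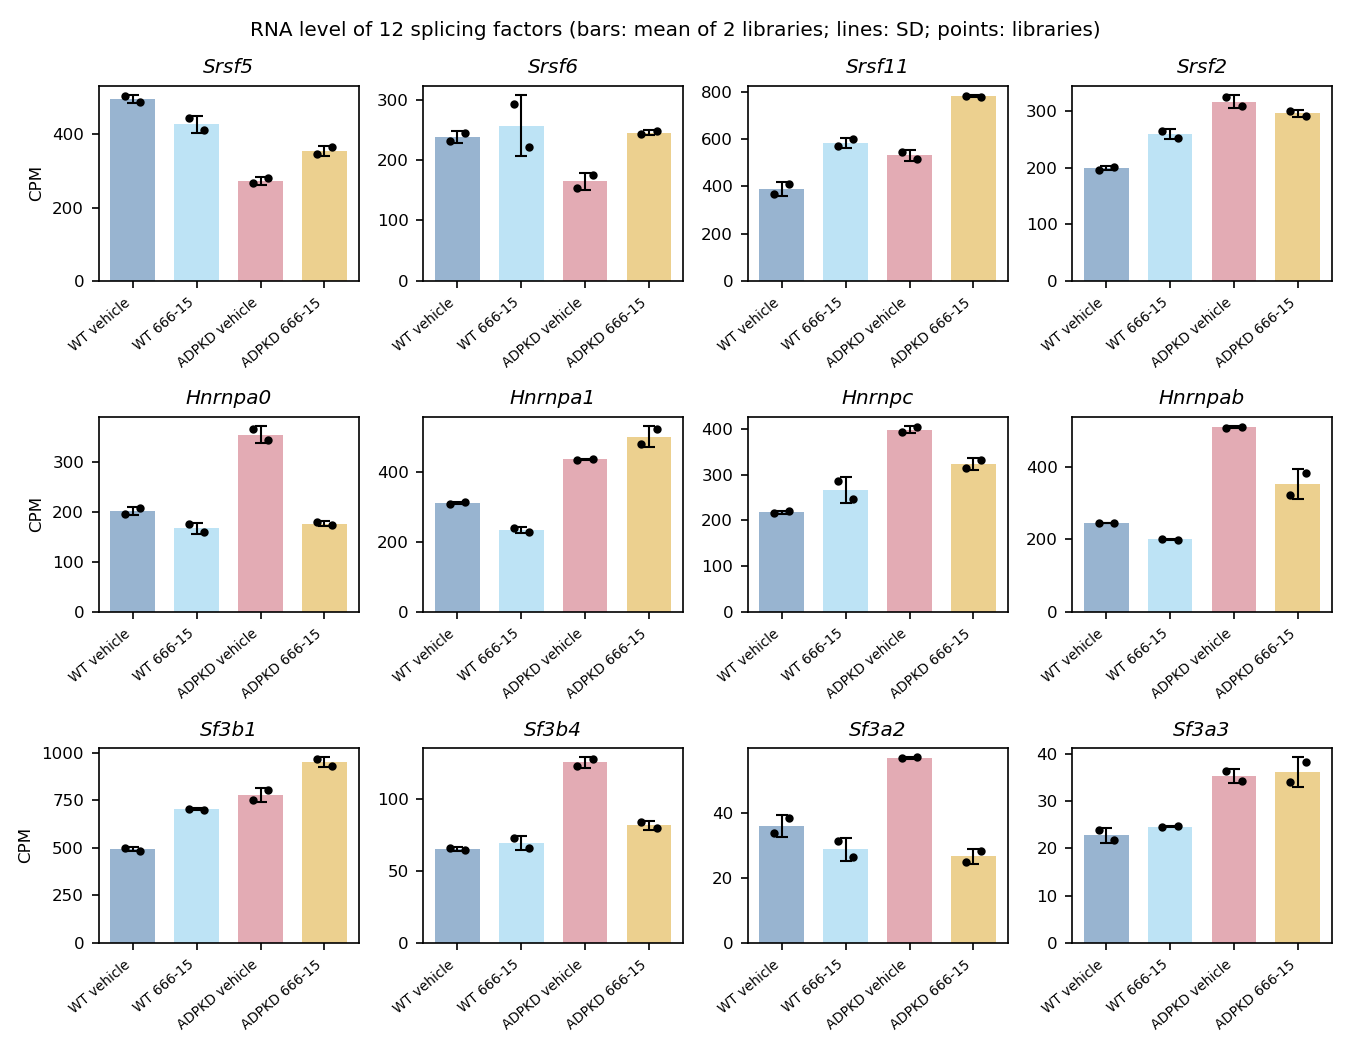
Normalised counts (CPM, each vertical axis from 0) of 12 splicing factor genes in the 4 groups. Bars are means of 2 libraries, lines are SD and points are libraries; Hnrnpa0 stands at 367 and 344 CPM in vehicle-treated ADPKD cells and at 160.0 to 208 CPM in the other 6 libraries, while Srsf11 and Sf3b1 are lowest with vehicle in WT and highest with inhibitor in ADPKD cells.

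The inhibitor comparison in ADPKD cells asks what 666-15 does to splicing factor RNA in the disease model. Roughly as many members rose as fell: Sf3a2, Hnrnpa0 and Sf3b5 fell most among the called members, and Srsf6, Hnrnpa3 and Srsf11 rose most. Of the 42 members 9 rose (21.4%, against 22.3% of all genes tested) and 11 fell (26.2%, against 19.1%), so 20 passed in either direction (47.6%, against 41.4%). The median log2 fold change was 0.03 over the members and 0.02 over all genes. The split of 9 higher and 11 lower became 3 and 15 with the GC trend removed and 6 and 13 with a filter of 5 CPM. This comparison and the previous one share the vehicle-treated ADPKD libraries, so a library that is high there moves both in opposite ways, and their values are given side by side without any test of the relation.

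Among the members that fell, Hnrnpa0 measured 181 and 173 CPM with the inhibitor, against 367 and 344 CPM with vehicle. Both inhibitor libraries lay under both vehicle libraries of either genotype, and Hnrnpa0 fell by 1.01 ± 0.09 (adjusted p = 7.82e-06), to 0.498 of its vehicle level. Sf3a2 measured 25.0 and 28.2 CPM, against 56.8 and 57.0 CPM with vehicle. It fell by 1.10 ± 0.14 (adjusted p = 5.54e-05), the largest fall of a member in this comparison. Plekhj1, its neighbour on the other strand, fell as well, by 0.85 ± 0.17 (adjusted p = 0.00174). Sf3b4 measured 83.95 and 79.75 CPM, against 123 and 128 CPM, and fell by 0.62 ± 0.10 (adjusted p = 0.000369). Hnrnpab measured 323 and 382 CPM, against 508 and 512 CPM, and fell by 0.53 ± 0.10 (adjusted p = 0.0009). In contrast to Hnrnpa0, both Hnrnpab libraries with inhibitor stayed above both vehicle-treated WT libraries. Hnrnpul2 measured 177 and 182 CPM, against 248 and 251 CPM, and fell by 0.47 ± 0.09 (adjusted p = 0.000969). These 5 falls held in all 19 alternatives.

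The other 6 falls each ended without at least 1 library. Sf3b5, the smallest SF3b subunit, measured 15.0 and 13.6 CPM with inhibitor and 27.6 and 20.9 CPM with vehicle, without overlap. It fell by 0.76 ± 0.19 (adjusted p = 0.00555), which ended without ADPKD vehicle replicate 1 (-0.55, adjusted p = 0.0599) or ADPKD inhibitor replicate 2 (-0.68, adjusted p = 0.0622). Srsf9 measured 45.0 and 52.5 CPM with inhibitor and fell by 0.40 (adjusted p = 0.0154), which ended without ADPKD vehicle replicate 2 (-0.33, adjusted p = 0.0993) or ADPKD inhibitor replicate 1 (-0.28, adjusted p = 0.184). For Srsf7, at 131 and 132 CPM, the fall of 0.35 (adjusted p = 0.021) ended without ADPKD vehicle replicate 1 (adjusted p = 0.126), ADPKD inhibitor replicate 1 (0.122) or replicate 2 (0.11). Srsf3, at 239.9 and 237 CPM, stood at the threshold (-0.25, adjusted p = 0.05, just under 0.05 before rounding), and its call ended in 10 of the 19 alternatives. Among these were leaving out any 1 of the 6 libraries other than inhibitor-treated WT, at 0.0776 to 0.263, and the replicate block, at 0.0575. Hnrnpc, at 315 and 333 CPM, fell by 0.30 (adjusted p = 0.0257), a call that ended without any 1 of the same 6 libraries (0.0559 to 0.186). U2af2 fell by 0.31 (adjusted p = 0.0409), which ended without either WT vehicle library (0.0731 and 0.0748), ADPKD vehicle replicate 2 (0.275) or either ADPKD inhibitor library (0.204 and 0.15).

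Of the 9 members that rose, Srsf11 was the only one whose call held in all 19 alternatives. It measured 784 and 778 CPM with inhibitor and 546.5 and 515 CPM with vehicle, far apart, and rose by 0.56 ± 0.09 (adjusted p = 0.000433). Srsf5, the SR gene with the deepest fall in vehicle-treated ADPKD cells, measured 346 and 365 CPM with inhibitor, against 266 and 281 CPM. It rose by 0.38 ± 0.09 (adjusted p = 0.00507) and stayed below both vehicle-treated WT libraries. Srsf6 measured 243 and 248 CPM, against 154.5 and 175 CPM, and rose by 0.58 ± 0.12 (adjusted p = 0.00265). Srsf10, a repressor of splicing in its dephosphorylated form, measured 165 and 173 CPM, against 120.3 and 129.5 CPM, and rose by 0.44 ± 0.09 (adjusted p = 0.0025). Hnrnpa3 measured 135 and 132 CPM, against 81.7 and 96.95 CPM, and rose by 0.58 ± 0.11 (adjusted p = 0.00101). Hnrnpd, a regulator of the decay of AU-rich mRNA, measured 152 and 169 CPM, against 118 and 114 CPM, and rose by 0.47 ± 0.10 (adjusted p = 0.00212). Sf3b1 measured 969 and 931 CPM, its highest levels of the study, against 751 and 803 CPM, and rose by 0.29 ± 0.09 (adjusted p = 0.0177). This ended without ADPKD vehicle replicate 1 (0.25, adjusted p = 0.113) or ADPKD inhibitor replicate 1 (0.28, adjusted p = 0.0851). Hnrnpk measured 797 and 823 CPM, against 649 and 673 CPM. Its rise of 0.29 (adjusted p = 0.0165) ended without ADPKD vehicle replicate 1 (0.27, adjusted p = 0.0878) or ADPKD inhibitor replicate 2 (0.28, adjusted p = 0.0831). The rise of Hnrnpdl, 0.33 (adjusted p = 0.0261), ended without ADPKD vehicle replicate 2 (0.121), ADPKD inhibitor replicate 1 (0.0767) or replicate 2 (0.115).

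The rises moved with base composition. Members' transcripts ranged from 37.1% GC (Hnrnph1) to 62.2% (Sf3a2), with a median of 45.0% against 49.9% over the protein-coding genes tested. Across the 42 members the log2 fold change of this comparison correlated with GC content at a Spearman rho of -0.432, and across 17252 genes at -0.354, as a description, since all points share the same 4 libraries. The 14 members under 42.8% GC had a median of 0.23 against 0.40 for all genes in that range, and the 14 from 49.5% GC had -0.12 against -0.23. With this trend removed, 8 of the 9 rises were no longer called and Srsf11 stayed called. The log2 fold change became 0.27 for Srsf6, 0.20 for Hnrnpa3, 0.18 for Hnrnpdl, 0.13 for Hnrnpd, 0.09 for Srsf10, -0.02 for Hnrnpk and -0.04 for Sf3b1, and that of Srsf5 came to about 0 (adjusted p = 1). In the same setting Hnrnph1, at 0.03 ± 0.09 as counted, passed as lower (-0.40, adjusted p = 0.0117), as did Sf3b6 (-0.59), Hnrnpll (-0.51), Hnrnph3 (-0.47) and Hnrnpu (-0.37). Hnrnpl (0.40) and Sf3b2 (0.33) passed as higher, and the fall of U2af2 was no longer called (-0.10). Whether the trend is technical was not tested.

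**Figure D3:**
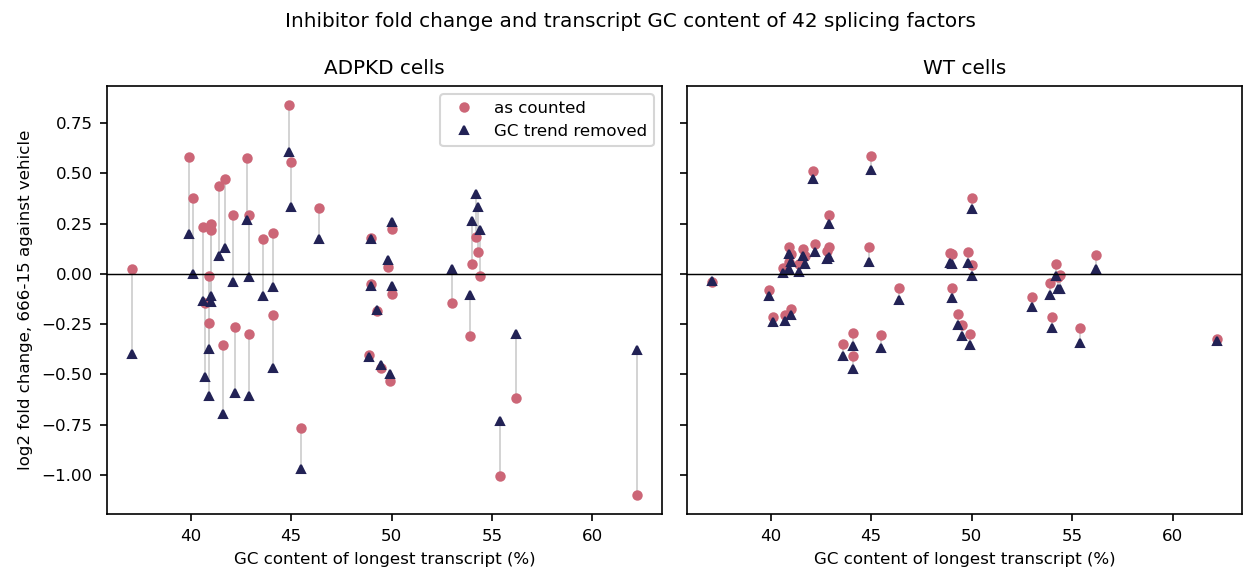
Log2 fold change of the inhibitor against vehicle (vertical axis) and GC content of the longest transcript in percent (horizontal axis) for the 42 genes, in ADPKD cells (left) and WT cells (right). Circles are values as counted and triangles the same genes with the GC trend removed; in ADPKD cells the circles run down from left to right (Spearman rho -0.432), with Sf3a2 at 62.2% GC and -1.10 at the lower right, and in WT cells they do so less (-0.178).

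In WT cells fewer members changed with the inhibitor. Srsf11 and Sf3b1 rose and Hnrnpa1 fell, and these 3 calls held in all 19 alternatives. Of the 42 members 4 rose (9.52%, against 13.9% of all genes tested) and 4 fell (9.52%, against 11.6%), which makes 8 in either direction (19.0%, against 25.5%). The median log2 fold change was 0.01 over the members and -0.01 over all genes. Other settings turned the split of 4 and 4 into 3 higher and 6 lower (RLE scaling, and DESeq2), 3 and 12 (a filter of 5 CPM), 3 and 10 (length trend removed) or 3 and 5 (GC trend removed). The 2 inhibitor libraries differ in sex, so sex is part of both the spread and the mean of this group. Sex thus enters every comparison that uses the group, and its part there was not tested. The model shares its estimate of spread among the groups, so this spread reaches the other comparisons too.

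Srsf11 measured 569.5 and 598 CPM with inhibitor in WT cells, against 369 and 408 CPM with vehicle. It rose by 0.59 ± 0.09 (adjusted p = 0.00044), against 0.56 in ADPKD cells. Sf3b1 measured 706 and 700.5 CPM, against 499.9 and 486 CPM, and rose by 0.51 ± 0.09 (adjusted p = 0.000815). Both genes were thus higher with inhibitor than with vehicle in either genotype, without overlap. Srsf2 measured 266 and 253 CPM, against 197 and 202 CPM, and rose by 0.38 ± 0.09 (adjusted p = 0.00692), which ended without WT vehicle replicate 1 (0.35, adjusted p = 0.0893) or 2 (0.39, adjusted p = 0.0511). Hnrnpa1 measured 242 and 229 CPM, against 310.3 and 314 CPM, and fell by 0.41 ± 0.09 (adjusted p = 0.00465). Its libraries with inhibitor in WT cells were the lowest of the 8. Hnrnpa2b1 measured 551 and 565 CPM, against 702 and 721 CPM, and fell by 0.35 (adjusted p = 0.0127), which ended without WT vehicle replicate 1 (-0.37, adjusted p = 0.0652) or 2 (-0.34, adjusted p = 0.0875). Hnrnpab, at 201 and 199 CPM, fell by 0.30 (adjusted p = 0.0413), and this ended without any 1 of the 4 WT libraries, at 0.0729 to 0.175. The fall of Hnrnpul2, at 133 and 137 CPM (-0.26, adjusted p = 0.0488), ended without any 1 of the 8 libraries (0.0583 to 0.251) and with the replicate block (0.0545). The rise of Hnrnpc, at 287 and 246 CPM (0.29, adjusted p = 0.0421), ended in 15 of 19 alternatives, among them without any 1 library other than inhibitor-treated WT replicate 2 (0.0554 to 0.23). Hnrnpa0, which fell in ADPKD cells, measured 176 and 160.0 CPM with inhibitor in WT cells (-0.27 ± 0.09, adjusted p = 0.0527), and passed as lower in 8 of the 19 alternatives. Hnrnph2, the member on the X chromosome, measured 117 and 144 CPM with inhibitor, the higher value in the Xist-positive library, and did not pass in any comparison. In inhibitor-treated ADPKD cells, with 8 and 4 counts of Xist, it measured 133 and 153 CPM.

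With the inhibitor given to both genotypes, ADPKD cells again had higher levels of many members, and this time hnRNP genes made up most of them. Of the 42 members 19 rose (45.2%, against 21.8% of all genes tested) and 1 fell (2.38%, against 24.5%), so 20 passed in either direction (47.6%, against 46.3%). The median log2 fold change was 0.24 over the members and -0.03 over all genes. Of the 20 hnRNP genes 13 rose and none fell, of the 11 SR genes 3 rose and 1 fell, and of the 9 SF3 genes 3 rose. The libraries of this comparison are the inhibitor-treated ones used above, so its values are not independent of the comparisons with vehicle. They include the Xist-positive WT library. Calls that held in all 19 alternatives numbered 8.

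Hnrnpa1 had the clearest difference with inhibitor, at 482 and 524 CPM in ADPKD and 242 and 229 CPM in WT cells. It measured 1.10 ± 0.09 higher in ADPKD cells (adjusted p = 1e-06), or 2.14-fold, against 0.49 with vehicle. Hnrnpab was higher by 0.82 ± 0.10 (adjusted p = 2.37e-05), against 1.05 with vehicle. Srsf10 was at 165 and 173 CPM in ADPKD and 112 and 116.5 CPM in WT cells, a rise of 0.57 ± 0.09 (adjusted p = 0.00031). With vehicle Srsf10 did not pass (0.18 ± 0.09, adjusted p = 0.125). Hnrnpk (0.44), Srsf11 (0.42), Hnrnpf (0.42), Hnrnpul2 (0.41) and Sf3b3 (0.38) also rose in every alternative. Hnrnpa0, Sf3b4 and Sf3a2, which rose between the vehicle-treated genotypes, did not pass with inhibitor. Their log2 differences were 0.08 ± 0.09 (adjusted p = 0.541), 0.23 ± 0.10 (adjusted p = 0.0795) and -0.12 ± 0.14 (adjusted p = 0.523). With the GC trend removed, Hnrnpa0 (0.34, adjusted p = 0.00539) and Sf3b4 (0.50, adjusted p = 0.000686) passed as higher in ADPKD cells with inhibitor too. Sf3b4 passed in 6 of the 19 alternatives, Hnrnpa0 in 2 and Sf3a2 in 0.

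Several calls between the inhibitor-treated genotypes depended on GC content or on a library. With the GC trend removed, Hnrnpu (0.42, then 0.17), Hnrnpll (0.49, then 0.22), Hnrnpr (0.45, then 0.20), Hnrnpd (0.38, then 0.16), Hnrnpc (0.28, then 0.11) and Hnrnph1 (0.33, then -0.09) no longer passed. Besides Hnrnpa0 and Sf3b4, U2af1 (0.495), Sf3b2 (0.37), Srsf9 (0.33) and Srsf2 (0.29) then passed as higher and Sf3b5 (-0.54) as lower. Without ADPKD inhibitor replicate 2 the calls of Sf3a3 (0.56, then 0.47 with adjusted p = 0.0536), Hnrnpul1 (0.38, then 0.32 with adjusted p = 0.0739) and Hnrnpd (then 0.29 with adjusted p = 0.0912) ended. Srsf12 is expressed near the limit of detection, at 0.596 and 1.265 CPM in WT and 2.47 and 3.12 CPM in ADPKD cells with inhibitor. Its libraries with vehicle were at 1.145 and 0.532 CPM in WT and at 1.76 and 1.36 CPM in ADPKD cells. The difference with inhibitor was 1.57 ± 0.52 (adjusted p = 0.0244), the largest fold of a member in this comparison, and ended without WT inhibitor replicate 1 (1.14, adjusted p = 0.15) or ADPKD inhibitor replicate 1 (1.74, adjusted p = 0.0589) or 2 (1.40, adjusted p = 0.13). Hnrnpc (0.28, adjusted p = 0.0313) lost its call without either WT vehicle library, WT inhibitor replicate 2 or either ADPKD inhibitor library, at 0.0572 to 0.176. Leaving out any 1 of those 5 libraries also ended the call of Hnrnpm (0.26, adjusted p = 0.0337), at 0.0604 to 0.19. Srsf5 was the member that fell (-0.27 ± 0.09, adjusted p = 0.0289). Its call ended without either WT vehicle library (0.0543 and 0.0549), WT inhibitor replicate 1 (0.118) or either ADPKD inhibitor library (0.18 and 0.0692).

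The interaction asks whether the inhibitor acted differently in the 2 genotypes, as the log2 fold change in ADPKD cells minus that in WT cells. The Xist-positive library of inhibitor-treated WT enters it. Hnrnpa0 and Hnrnpc responded more negatively and Hnrnpa1 more positively in ADPKD cells, and these 3 differences held in all 18 alternatives. Of the 42 members 13 passed (31.0%, against 26.6% of all genes tested), 5 of them higher in ADPKD cells (11.9%, against 13.6%) and 8 lower (19.0%, against 13%). The median was 0.04 over the members and -0.02 over all genes. The split of 5 and 8 was 9 and 5 under RLE scaling and under DESeq2, 9 and 8 with a filter of 5 CPM, 6 and 6 with no filter and 7 and 5 with the length trend removed.

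Hnrnpa0 responded with -1.01 in ADPKD and -0.27 in WT cells, a difference of -0.74 ± 0.13 (adjusted p = 0.00152). Hnrnpc responded with -0.30 in ADPKD and 0.29 in WT cells, and the difference was -0.59 ± 0.14 (adjusted p = 0.00699). For Hnrnpa1 the inhibitor moved ADPKD cells by 0.20, which did not pass by itself (adjusted p = 0.0878), and WT cells by -0.41. The difference for Hnrnpa1 was 0.61 ± 0.13 (adjusted p = 0.00365). Srsf11 responded with 0.56 in ADPKD and 0.59 in WT cells, and its difference of -0.03 ± 0.13 did not pass (adjusted p = 0.889).

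Another 4 differences held without each library but not with the GC trend removed. They were Sf3b4 (-0.71 ± 0.14, adjusted p = 0.00281, then -0.32), Hnrnpa3 (0.66 ± 0.15, adjusted p = 0.00699, then 0.31), Srsf5 (0.59 ± 0.13, adjusted p = 0.00464, then 0.24) and Hnrnpa2b1 (0.52 ± 0.13, adjusted p = 0.00934, then 0.30). Sf3b4 responded with -0.62 in ADPKD and 0.09 in WT cells, and Srsf5 with 0.38 and -0.21. Sf3a2 differed by -0.78 ± 0.19 (adjusted p = 0.00989), the largest size among the members, which ended with the GC trend removed (-0.04, adjusted p = 0.888), without WT vehicle replicate 1 (-0.67, adjusted p = 0.0639) or without ADPKD inhibitor replicate 1 (-0.67, adjusted p = 0.0625). Plekhj1, the neighbour of Sf3a2 on the other strand, differed by -1.04 ± 0.24 (adjusted p = 0.00742). The remaining 5 members were SR genes whose calls ended without several libraries. Srsf2 (-0.48, adjusted p = 0.0134) lost its call without any 1 library other than the 2 of inhibitor-treated WT and ADPKD vehicle replicate 2, at adjusted p of 0.05 to 0.083. Of its opposite-strand neighbours Mettl23 differed by -0.06 ± 0.29 and Mfsd11 by -1.42 ± 0.19. Srsf10 (0.39, adjusted p = 0.0455) lost it without any 1 library other than WT inhibitor replicate 2 and ADPKD vehicle replicate 2, at 0.0704 to 0.146, and once the GC trend was removed (0.08, adjusted p = 0.685). Srsf7 (-0.47, adjusted p = 0.0394) lost it without any 1 library but WT inhibitor replicate 2, at 0.0561 to 0.153. Srsf9 (-0.51, adjusted p = 0.0413) and Srsf3 (-0.38, adjusted p = 0.0497) lost theirs without any 1 of the 8, at 0.0505 to 0.2 and 0.0549 to 0.262, and Srsf3 also with the replicate block (0.0575). With the GC trend removed, the differences of Hnrnpul1 (0.53), Hnrnpl (0.41), Sf3b2 (0.41), Hnrnpu (-0.40), Sf3b1 (-0.51) and Sf3b6 (-0.70) passed, which they did not as counted.

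**Figure D4:**
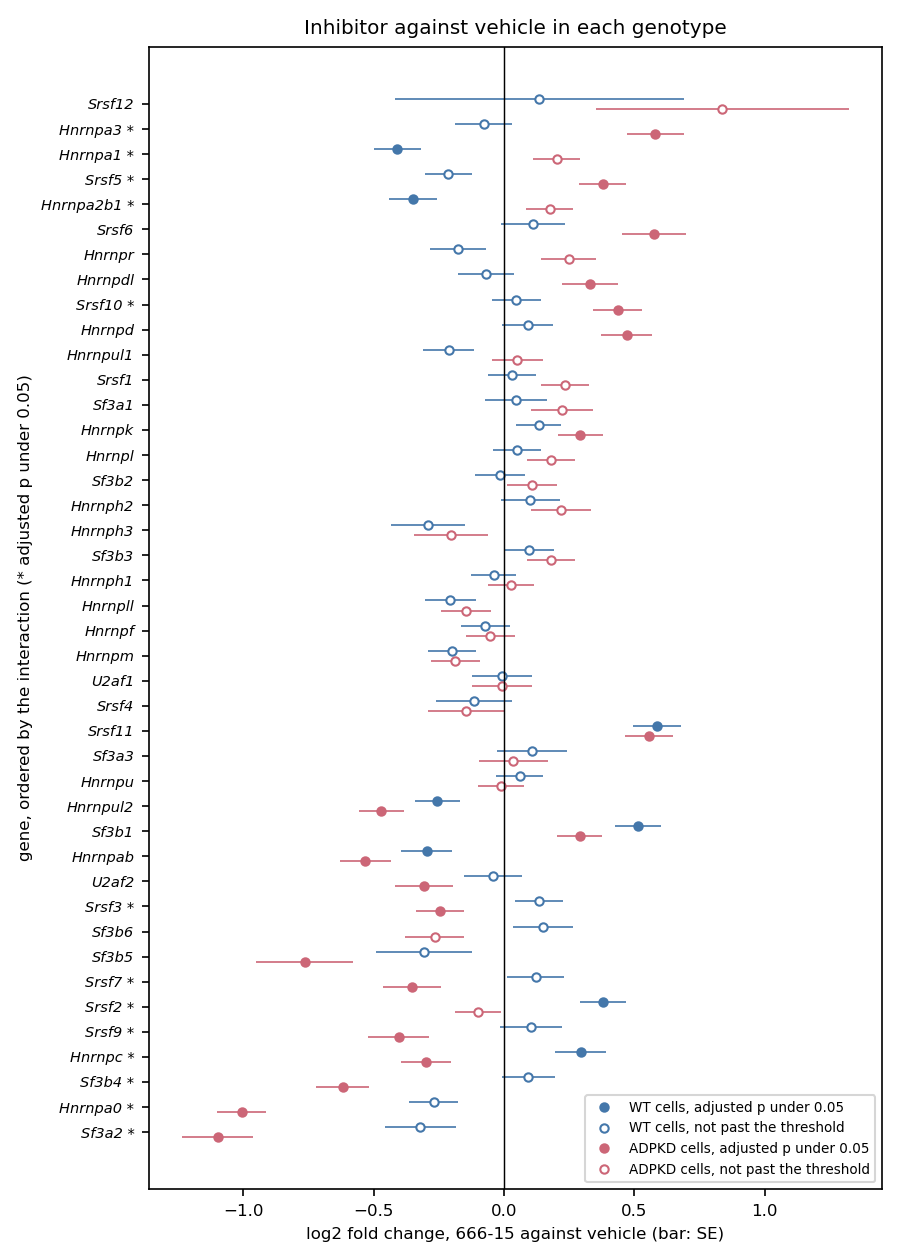
Log2 fold change of the inhibitor against vehicle (horizontal axis, with SE as bars) in WT cells (blue) and ADPKD cells (red) for the 42 genes, ordered from the most positive interaction at the top to the most negative at the bottom. Filled points passed an adjusted p of 0.05 and asterisks mark the 13 genes whose interaction passed; Hnrnpa1 is at -0.41 in WT and 0.20 in ADPKD cells, Hnrnpa0 at -0.27 and -1.01, and Srsf11 at 0.59 and 0.56.

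Across the 5 comparisons 7 members were never called: Srsf1, Srsf4, Hnrnph2, Hnrnph3, Sf3a1, Sf3b2 and U2af1. Hnrnpc was the only member called in all 5. Its calls between the vehicle-treated genotypes and in the interaction held in every alternative. Those for the inhibitor held in 13 of 19 in ADPKD cells and in 4 of 19 in WT cells. Between the inhibitor-treated genotypes the call held in 11 of 19. Sf3b1 and Srsf11 were called higher in all 4 comparisons of 2 groups, so that for both the order from low to high was WT vehicle below the 2 middle groups below ADPKD inhibitor. In that order the 2 middle groups, WT inhibitor and ADPKD vehicle, overlapped for neither gene but lay close: 706 and 700.5 against 751 and 803 CPM for Sf3b1, and 569.5 and 598 against 546.5 and 515 CPM for Srsf11. The 4 calls of Srsf11 held in every alternative. For Sf3b1 the rise with inhibitor in ADPKD cells held in 12 of 19, and became -0.04 (adjusted p = 0.746) with the GC trend removed. Hnrnpf, Hnrnph1, Hnrnpll, Hnrnpm, Hnrnpu, Sf3a3 and Sf3b3 were called higher in ADPKD cells both with vehicle and with inhibitor and were not called for the inhibitor in either genotype. By mean level 18 members were highest in vehicle-treated ADPKD cells and another 18 in inhibitor-treated ADPKD cells. The counts in this paragraph were not made over all genes, so they do not set the members apart from other genes.

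Other genes of the splicing pathway were counted from 6 lists, of which 91 genes were tested. Between the vehicle-treated genotypes 35 of them rose (38.5%, against 28.8% of all genes tested) and 18 fell (19.8%, against 27.6%), with a median of 0.15 against 0.05 over all genes. The inhibitor in ADPKD cells raised 31 (34.1%, against 22.3%) and lowered 17 (18.7%, against 19.1%). In WT cells it raised 18 (19.8%, against 13.9%) and lowered 8 (8.79%, against 11.6%). The calls of these lists were not counted again with the GC trend removed, and the part of GC content in them was not tested. Kinases that phosphorylate SR proteins, with the phosphatase and importer that act on them, gave 3 higher (27.3%) and 1 lower (9.09%) of 11 between vehicle-treated genotypes. Srpk1, the main cytoplasmic SR kinase, rose from 78.2 ± 1.9 to 128 ± 2.1 CPM (SD, n = 2; 0.71 ± 0.09, adjusted p = 2.9e-05). With the inhibitor in ADPKD cells 5 of the 11 rose (45.5%) and 1 fell (9.09%). Prpf4b, a kinase of the spliceosome, rose from 93.5 ± 5.6 to 167 ± 11 CPM there (0.84 ± 0.10, adjusted p = 3.69e-05), and Srpk2 rose by 0.73 ± 0.11 (adjusted p = 0.000167). In WT cells 5 rose (45.5%) and none fell, with Dyrk1a the leading one (0.69 ± 0.09, adjusted p = 0.000149).

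SR-related factors, 12 genes, gave 4 higher and 4 lower between the vehicle-treated genotypes, 33.3% each way against 28.8% and 27.6% of all genes. Tra2a, which binds GAA-rich enhancers, stood out, with 111 ± 6.8 CPM in the WT libraries against 279 ± 8.6 CPM in the ADPKD libraries (1.34 ± 0.09, adjusted p = 8.42e-08), and its response to the inhibitor differed between genotypes by -0.82 ± 0.13 (adjusted p = 0.00069). The inhibitor in ADPKD cells raised 6 of the 12 (against 22.3% of all genes) and lowered 2 (16.7%, against 19.1%). Among those raised were the speckle scaffolds Srrm2, from 460.0 ± 11 to 887 ± 62 CPM (0.95 ± 0.10, adjusted p = 1.87e-05), and Son (0.79 ± 0.10, adjusted p = 4.29e-05). In WT cells 3 of the 12 rose (25.0%, against 13.9%) and 1 fell (8.33%, against 11.6%). Proteins of the U1 and U2 particles and the Sm ring, 14 genes, went 9 higher (64.3%, against 28.8%) and 2 lower (14.3%, against 27.6%) between vehicle-treated genotypes. With the inhibitor in ADPKD cells 0 rose (against 22.3%) and 5 fell (35.7%, against 19.1%). Phf5a, a partner of Sf3b1 in SF3b, rose by 0.80 ± 0.14 (adjusted p = 0.000279) between the vehicle-treated genotypes. Snrpd2, an Sm protein, fell from 53.0 ± 3.5 to 24.8 ± 3.9 CPM (-1.10 ± 0.16, adjusted p = 0.000157) with the inhibitor in ADPKD cells. In WT cells its mean was 41.4 ± 2.6 CPM with vehicle and 25.2 ± 4.7 CPM with inhibitor. Of the 14 genes 1 rose in WT cells (7.14%, against 13.9%) and 4 fell (28.6%, against 11.6%). Among the latter were Snrpf (-1.69 ± 0.24, adjusted p = 0.000211) and Snrpd3 (-0.97 ± 0.15, adjusted p = 0.000351).

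Other regulators of alternative splicing were covered by 29 tested genes. Between the vehicle-treated genotypes 8 rose (27.6%, against 28.8%) and 7 fell (24.1%, against 27.6%), shares near those of all genes. Rbm47, an RNA-binding protein of epithelia, fell from 299 ± 1.6 to 78.5 ± 6.3 CPM (-1.93 ± 0.10, adjusted p = 5.22e-09). Esrp1, the epithelial splicing regulator, rose from 21.9 ± 1.5 to 65.4 ± 6.6 CPM (1.58 ± 0.12, adjusted p = 1.65e-07). The inhibitor raised 15 (51.7%, against 22.3%) and lowered 4 (13.8%, against 19.1%) of the 29 in ADPKD cells, with a median of 0.41 against 0.02 over all genes. Over all genes under 42.8% GC the median in that comparison was 0.40. The GC content of the 29 genes is not given here, and its part in their calls was not tested. In WT cells 8 rose (27.6%, against 13.9%) and 1 fell (3.45%, against 11.6%). Rbm47 rose to 182 ± 4.5 CPM with inhibitor in ADPKD cells (1.21 ± 0.10, adjusted p = 3.19e-06), still below WT. Ptbp1, a repressor of exons beside pyrimidine tracts, rose in both genotypes, by 0.78 ± 0.09 in ADPKD cells (adjusted p = 4.2e-05) and by 0.81 ± 0.09 in WT cells (adjusted p = 4.02e-05). Creb1, which encodes the factor that the inhibitor is aimed at, measured 43.1 ± 2.2 CPM with vehicle in WT and 34.9 ± 1.6 CPM with inhibitor, against 74.0 ± 6.6 and 53.5 ± 0.65 CPM in ADPKD cells.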

How the data were processed

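Per the labels' protocols, RNA was selected with oligo dT. The submitters' processing notes name HISAT2 2.1.0 (aligner), featureCounts 1.6.0 (counting per gene), the build mm10, and DESeq2. The authors deposited raw counts for 55304 genes. The annotation release, strand setting and treatment of multiply mapped reads are not given in the sources used here. Vehicle columns were matched to samples by genotype and replicate number. Members and gene lists were chosen with earlier results of these data known. Every member may be named, libraries are given in full for members called in at least 3 of 5 comparisons or in the interaction and for the 3 largest folds of each, and up to 2 called genes of smallest p are named per list and comparison.

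Counts were analysed with edgeR 4.0.16 in R 4.3.3. Genes passing filterByExpr (minimum count 10, minimum total 15) were scaled by TMM, and the 4 groups entered 1 robust quasi-likelihood model. Its common biological coefficient of variation was 0.138, with 4 degrees of freedom from the residuals and 8.69 (median) from the prior. Contrasts were two-sided, with Benjamini-Hochberg adjustment over 17440 genes at 0.05. The code was tested on simulated data. CPM are TMM-normalised. Gene positions, GC content and exon overlaps came from GENCODE M21, which holds all 42 members. Alternatives were RLE scaling, no filter, a filter of 5 CPM in 2 libraries, no robust option, a replicate block, only the groups compared, DESeq2 1.42.0, removal of a GC or length trend per library (lowess, span 0.3; 17252 genes), and leaving out each library. The replicate block combined with either trend was added after seeing the data. Replicate numbers did not pair libraries, with correlations of deviations from -0.0371 to 0.0806 over 11199 genes, and no 2 libraries agreed within sampling noise.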

Additional observations from a re-analysis of the deposited data

Results flagged for a closer look

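By the edgeR test of the interaction, the response to the inhibitor differed between genotypes for 13 of the 42 splicing factor genes. This was 31.0% of them, against 26.6% of all genes tested. The log2 fold change in ADPKD cells minus that in WT cells was -0.7766 for Sf3a2, -0.7379 for Hnrnpa0, -0.7133 for Sf3b4, -0.5933 for Hnrnpc, -0.5077 for Srsf9, -0.4775 for Srsf2, -0.4741 for Srsf7 and -0.3798 for Srsf3. On the other side it was 0.3891 for Srsf10, 0.5243 for Hnrnpa2b1, 0.5934 for Srsf5, 0.6109 for Hnrnpa1 and 0.6589 for Hnrnpa3. Of these, 3 held in all 18 alternatives (Hnrnpa0, Hnrnpc and Hnrnpa1), and 7 held without each of the 8 libraries in turn.

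Hnrnpa0, Sf3a2, Sf3b4, Srsf3, Srsf7 and Srsf9 had the same calls: higher in ADPKD cells with vehicle, lower there with the inhibitor, not called between the inhibitor-treated genotypes and a negative interaction. The vehicle-treated ADPKD libraries enter 3 of these 4 comparisons. The transcripts of Hnrnpa0, Sf3b4 and Sf3a2 had the highest GC content of the 42 members, at 55.4%, 56.2% and 62.2%, whereas those of Srsf3, Srsf7 and Srsf9 stood at 40.9%, 41.6% and 48.9%. With the GC trend removed the interaction stayed called for Hnrnpa0 (-0.39), Srsf3 (-0.71), Srsf7 (-0.79) and Srsf9 (-0.47), and did not for Sf3b4 (-0.32, adjusted p = 0.0882) and Sf3a2 (-0.04, adjusted p = 0.888). In that setting Hnrnpa0, Sf3b4 and Srsf9 passed as higher between the inhibitor-treated genotypes (0.34, 0.50 and 0.33).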

How the results depend on the processing

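Between vehicle-treated genotypes 21 to 28 members were called when a library was left out (17 to 23 higher, 4 to 5 lower), and no member reversed. For the inhibitor in ADPKD cells the counts were 13 to 24 (7 to 13 higher, 6 to 11 lower), with 3 higher after removal of the GC trend, with or without the replicate block. In that setting Hnrnph1 reversed to -0.40 (with block -0.40), Hnrnpk to -0.0151 (-0.0152) and Sf3b1 to -0.0404 (-0.0414). For the inhibitor in WT cells 3 to 7 were called (2 to 4 higher, 1 to 4 lower) without a library, 15 (12 lower) with a 5 CPM filter, 13 (10 lower) with the length trend removed, with or without the block, and 5 (2 lower) with only the compared groups. Between inhibitor-treated genotypes 13 to 21 were called (13 to 21 higher, 0 to 2 lower) without a library. The count of lower members was 2 with no filter, with the block and with the GC trend removed (with or without the block), and 0 with the block and length trend removed and with only the compared groups. Hnrnph1 reversed to -0.0909 with the GC trend removed (with block -0.0840). The interaction gave 7 to 12 (4 to 7 higher, 3 to 6 lower) without a library, 9 higher and 5 lower with RLE scaling and with DESeq2, 9 higher with a 5 CPM filter, and 5 lower with the length trend removed (with block 4). The causes of these shifts were not tested. The replicate block alone ended the calls of Srsf3 (inhibitor in ADPKD cells and interaction, adjusted p = 0.0575 in both) and Hnrnpul2 (inhibitor in WT cells, 0.0545), and all other member calls held under it. RLE scaling moved the median of all genes by at most 0.0617 in size, downward for the inhibitor in WT cells (-0.0617). With 2 libraries a group, fold changes of members near 1 CPM, such as Srsf12, are known least well.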

Other observations

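The U4/U6.U5 tri-snRNP and catalytic factors, 16 genes, gave 10 higher (62.5%, against 28.8% of all genes tested) and 1 lower (6.25%, against 27.6%) between the vehicle-treated genotypes, with a median log2 fold change of 0.30 against 0.05 over all genes. Eftud2, a GTPase of the U5 particle, measured 47.4 ± 4.6 CPM (SD, n = 2) in the WT libraries against 76.5 ± 2.4 CPM in the ADPKD libraries (0.69 ± 0.11, edgeR adjusted p = 0.000122), and Slu7, which aids the second catalytic step, rose by 0.79 ± 0.13 (adjusted p = 0.000165). The inhibitor in ADPKD cells raised 4 of the 16 (25.0%, against 22.3%) and lowered 3 (18.8%, against 19.1%), shares near those of all genes, with Prpf8, the core of the catalytic centre, at 212 ± 5.0 CPM with vehicle and 303 ± 11 CPM with inhibitor (0.52 ± 0.09, adjusted p = 0.000528). In WT cells 1 rose and 1 fell (6.25% each, against 13.9% and 11.6%).

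The minor spliceosome removes a rare class of introns and was covered by 9 genes. Rnpc3, which binds the U11 and U12 particles together, measured 22.3 ± 1.4 CPM in vehicle-treated WT and 13.8 ± 0.82 CPM in vehicle-treated ADPKD cells (-0.69 ± 0.14, adjusted p = 0.000795). Inhibitor-treated libraries stood at 27.1 ± 0.71 CPM for WT and 40.2 ± 0.58 CPM for ADPKD. The difference between these 2 groups, 0.57 as counted (adjusted p = 0.00351), was -0.00136 (adjusted p = 0.995) with the GC trend removed. Its rise in ADPKD cells was 1.54 ± 0.14 (adjusted p = 5.41e-06), larger than that of any SR or hnRNP gene in that comparison, and its interaction was 1.26 ± 0.19 (adjusted p = 0.000455). Of the 9 genes 1 rose (11.1%, against 28.8%) and 3 fell (33.3%, against 27.6%) between the vehicle-treated genotypes, and 1 rose (11.1%, against 22.3%) and 2 fell (22.2%, against 19.1%) with the inhibitor in ADPKD cells.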
